A study of Mus musculus with 5 samples.

Results

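Cytochrome P450 genes of families 1 to 4 were followed in the newborn pancreas after Pdx1 was deleted from exocrine cells. A gene was included when its probe set carried a single symbol made of Cyp, a digit of 1 to 4, a letter and further digits, whatever its intensity. This gave 69 of the 19938 genes measured, 3 of family 1, 44 of family 2, 6 of family 3 and 16 of family 4. Among the symbols, Cyp2d37-ps and Cyp4f41-ps are those of pseudogenes, and Cyp4a12a and Cyp4a12b are near-identical copies whose probes could share signal. Other close copies within a subfamily could share signal too, so counts of members need not be counts of independent readings.

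P450 enzymes are haem proteins of the endoplasmic reticulum that add an oxygen atom to their substrates with electrons supplied by cytochrome P450 reductase. Members of the first families oxidise drugs, other foreign compounds, steroids and arachidonic acid, and many members of family 4 oxidise the terminal carbon of fatty acids. The liver holds most of them, some are made mainly in the epithelium of stomach and intestine, and their genes lie in clusters of closely related copies.

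Whole pancreata of mice on postnatal day 1 were hybridised to Mouse Gene 1.0 ST arrays, 1 pancreas per array. The 3 Pdx1cKO pancreata carried loxP-flanked Pdx1 alleles and an Elastase-Cre transgene, which is driven by the promoter of an acinar digestive enzyme. The 2 control pancreata came from the same litter and are labelled only as control. The sample labels and the paper give no Cre or loxP genotype for them. Values are normalised intensities on a linear scale, and fold changes are differences of mean log2 intensity, Pdx1cKO minus control. Because a whole organ was assayed, fewer cells of a type and less RNA per cell cannot be told apart.

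Several arrays stood apart before any P450 was considered. Over all genes, every Pdx1cKO value lay above both controls in 12% and below both in 11.7%. Each of these outcomes is 1 of 10 possible splits of the 5 arrays, so these shares alone show no group difference. Pdx1 itself read 48.4, 48.4 and 42.9 in Pdx1cKO pancreata, against 67.9 and 112.7 in control pancreata. Acinar and islet markers lay above the median of every array, but for 1 acinar marker in Pdx1cKO 1, and all 12 measured were lower in Pdx1cKO pancreata without overlap. The summed intensity of 12 hepatocyte markers was 33770, 41520 and 14950 in Pdx1cKO 1, 2 and 3, against 4624 and 6123 in the controls, and 11 of the 12 did not overlap. Control 2 carried gut transcripts: 11 stomach markers summed to 938, 1012 and 863 in Pdx1cKO pancreata, against 523 and 17490 in controls 1 and 2, and 10 intestinal markers to 481, 471 and 564, against 434 and 2145. Single gut markers varied, and Alpi alone gave 1132 of the intestinal sum in control 2. Chia1 and Guca2a were lower in both controls than in every mutant, and Cdx2 read 36.6 on every array. Sexes were uneven, since Xist read 622, 349 and 44.9 in Pdx1cKO pancreata, against 53.4 and 33.5 in control pancreata. The part of each of these in the values below was not tested, except where values without an array are given.

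No P450 passed the test across all genes. With limma and Benjamini-Hochberg adjustment over 19938 genes, 0 of the 69 members were called higher and 0 lower, where 0.0% of all genes were called in each direction, and the lowest adjusted p of a member was 0.239. At an unadjusted p under 0.05, 3 members (4.35%) were higher, against 5.29% of all genes, and 2 (2.9%) were lower, against 5.04%. The methods' t-test, adjusted in the same way, also called 0 members in either direction. An exact permutation test of 3 against 2 arrays cannot go below 0.1. By size, 11 members (15.9%) were at least 2-fold higher in Pdx1cKO pancreata, against 1.16% of all genes, and 3 (4.35%) were at least 2-fold lower, against 1.09%. These 2-fold counts were 17 higher without Pdx1cKO 3, and lower members numbered 5 without control 1 and 0 without control 2. In 14 members (20.3%) every Pdx1cKO value lay above both controls, against 12% of all genes, and in 9 (13.0%) every one lay below, against 11.7%. Rescaling the arrays to a common median gave 24 lower without overlap, and quantile normalisation gave 25 higher. The shares of all genes above are for the unscaled values, so neither count has its own share to stand beside. Exact ties between arrays were held by 32 members, among them Cyp1a2 at 27.01 on every array. Shifting arrays separately can break such ties, and the part of this in both counts was not tested. The median log2 fold change was 0.06 over the members and 0.0 over all genes, and 43 members lay between -0.33 and 0.37.

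**Figure D1:**
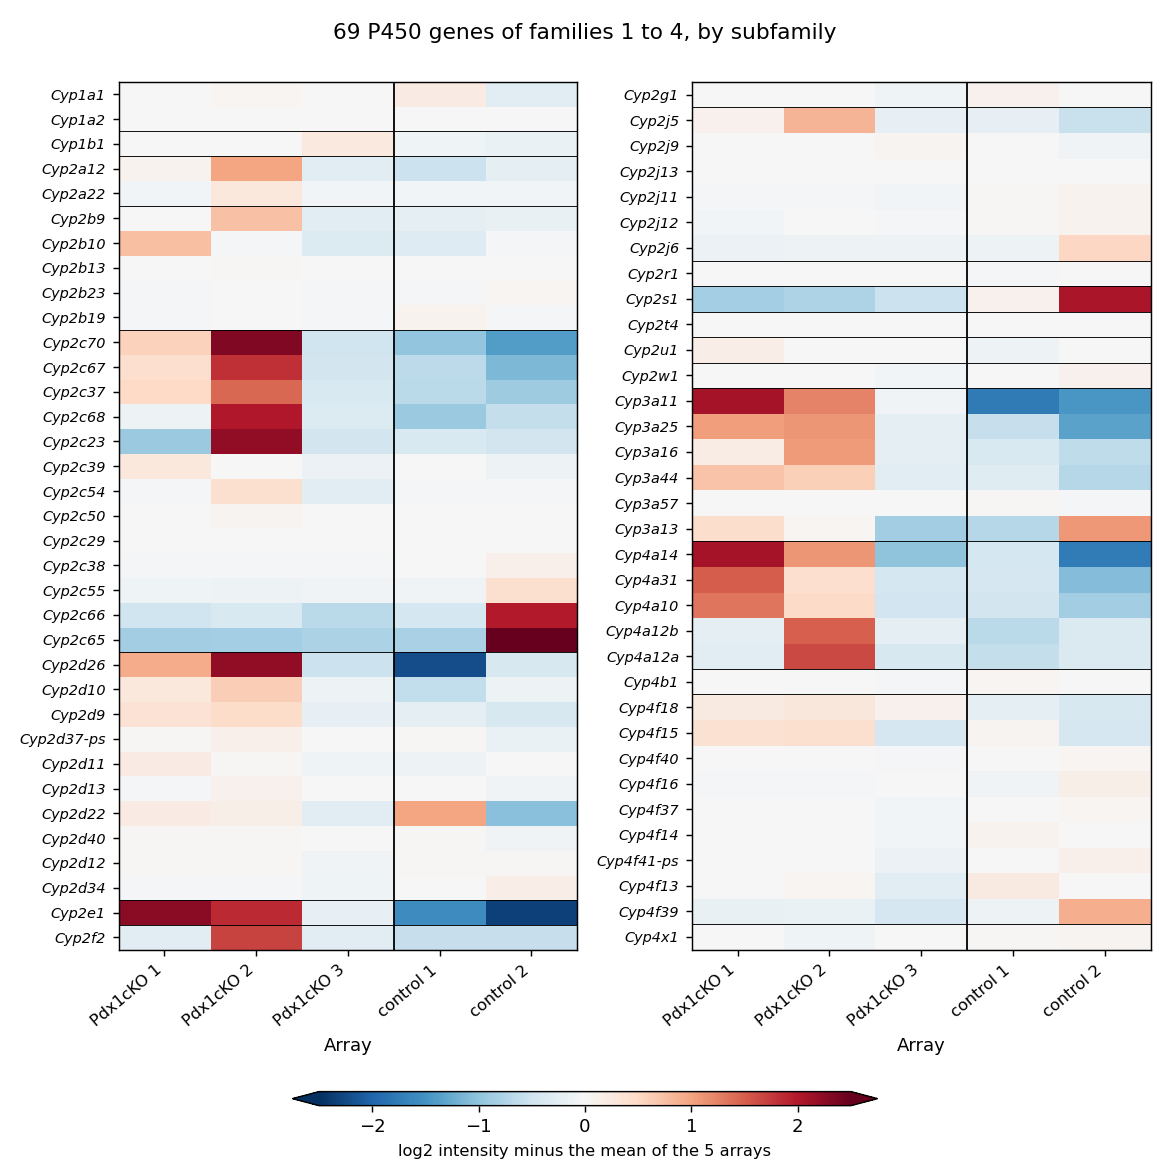
Log2 intensity of the 69 P450 genes minus each gene's mean over the 5 arrays (colour, red above and blue below the mean), with Pdx1cKO arrays left of control arrays and genes grouped by subfamily. Most genes are near white, red cells gather in Cyp2c, Cyp2e1, Cyp3a and Cyp4a in Pdx1cKO 1 and 2, and Cyp2c65, Cyp2c66 and Cyp2s1 are red in control 2.

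The members with the highest fold changes belonged to the Cyp2c, Cyp2d, Cyp2e, Cyp3a and Cyp4a subfamilies. Cyp2e1, which oxidises ethanol and other small solvents, read 1205, 919 and 220 in Pdx1cKO pancreata, against 85.3 and 49.9 in control pancreata. The groups did not overlap, although the value of Pdx1cKO 3 lay far nearer the controls than did those of the other mutants. The difference was 3.26 on the log2 scale (SE 0.924, 95% interval 0.60 to 5.91), 9.58-fold, with an adjusted p of 0.391 from limma. Cyp3a11, a major drug-oxidising P450 of mouse liver, read 427, 239 and 94.3 in Pdx1cKO pancreata, against 29.5 and 36.8 in control pancreata, again without overlap. Its log2 difference was 2.69 (SE 0.748, interval 0.54 to 4.84), 6.46-fold, with an adjusted p of 0.382.

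The other Cyp3a genes differed in the same direction, except Cyp3a13 and Cyp3a57. Cyp3a25 read 207, 217.6 and 86.3 in Pdx1cKO pancreata, against 67.6 and 39.97 in control pancreata (log2 difference 1.60, SE 0.566). Cyp3a16, known as a fetal and neonatal liver form, read 57.2, 105.8 and 42.6, against 38.4 and 32.4 (0.85, SE 0.458). Cyp3a44 read 76.3, 69.7 and 38.0, against 37.4 and 28.3 (0.85, SE 0.392). In these 3 genes the groups were separate, but Pdx1cKO 3 was only just above control 1 in Cyp3a16 and Cyp3a44. Cyp3a57 stayed between 24.6 and 25.6 on every array. Cyp3a13, which is made in intestine as well as liver, read 117, 89.7 and 47.1 in Pdx1cKO pancreata, against 52.9 and 182 in controls 1 and 2. It overlapped, and its log2 difference of -0.31 was 0.58 without control 2.

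The Cyp2c genes split by gene. Cyp2c70, which makes muricholic bile acids in mice, read 182, 602 and 86.2 in Pdx1cKO pancreata, against 61.5 and 46.3 in control pancreata (log2 difference 1.99, SE 0.962, adjusted p 0.515 from limma). Cyp2c67 read 62.4, 165 and 33.9, against 29.8 and 21.4 (1.48, SE 0.792). Cyp2c37 read 92.7, 176 and 49.9, against 41.0 and 35.4 (1.29, SE 0.617). All 3 were without overlap, highest in Pdx1cKO 2 and lowest among the mutants in Pdx1cKO 3. Cyp2c68, at 46.1, 200.3 and 39.4 in Pdx1cKO pancreata, against 26.3 and 33.5 in control pancreata, followed the same order (1.27, SE 0.878). Without Pdx1cKO 2 the differences were 1.23 in Cyp2c70, 0.87 in Cyp2c67, 0.84 in Cyp2c37 and 0.52 in Cyp2c68. Cyp2c23, an arachidonic acid epoxygenase whose RefSeq synonym is Cyp2c44, read 46.3, 407 and 63.8, against 67.3 and 63.8. Its value in Pdx1cKO 2 alone carried the log2 difference of 0.70 (SE 1.14), which was -0.27 without that array. Cyp2c29, an abundant form of adult liver, stayed between 21.9 and 22.2 on all 5 arrays.

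In the Cyp2d subfamily a single gene was far above the rest in its difference. Cyp2d26 read 1026, 2502 and 373 in Pdx1cKO pancreata, against 116 and 408.5 in control pancreata (log2 difference 2.18, SE 1.11, adjusted p 0.515). The value of Pdx1cKO 3 lay below that of control 2, and the difference was 1.27 without control 1. Cyp2d10 and Cyp2d9 differed by 0.62 and 0.51, with Cyp2d9 free of overlap. Cyp2d22 read 547, 525 and 388 in Pdx1cKO pancreata, against 938 and 229 in controls 1 and 2, so the controls lay on either side of the mutants (0.06, SE 0.709). The other 6 Cyp2d genes lay between -0.14 and 0.12.

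All 5 Cyp4a genes, which encode fatty acid omega-hydroxylases, were higher on average, but in 4 of them the groups overlapped. Cyp4a14 read 598.8, 305 and 70.5 in Pdx1cKO pancreata, against 103.8 and 42.2 in control pancreata (log2 difference 1.82, SE 1.15). Cyp4a31 read 144.5, 68.0 and 37.4, against 37.8 and 23.9 (1.25, SE 0.694), and Cyp4a10 read 141, 77.9 and 40.2, against 40.5 and 30.4 (1.12, SE 0.626). In these 3 genes Pdx1cKO 1 was highest and Pdx1cKO 3 lay just below control 1 or further down. Without Pdx1cKO 1 the differences were 1.15 in Cyp4a14, 0.75 in Cyp4a31 and 0.67 in Cyp4a10, and Cyp4a14 was 1.17 without control 2. Cyp4a12a read 37.2, 141 and 34.1, against 29.7 and 34.8, and Cyp4a12b read 35.8, 119.7 and 35.8, against 26.7 and 33.0. Both copies stood out in Pdx1cKO 2 alone, and without it they differed by 0.15 and 0.27. Ppara, the nuclear receptor for which Cyp4a genes are classical targets, read 109.5, 165.8 and 70.7 in Pdx1cKO pancreata, against 55.3 and 58.7 in control pancreata (0.93, unadjusted p 0.0943, adjusted p 0.515 from limma).

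**Figure D2:**
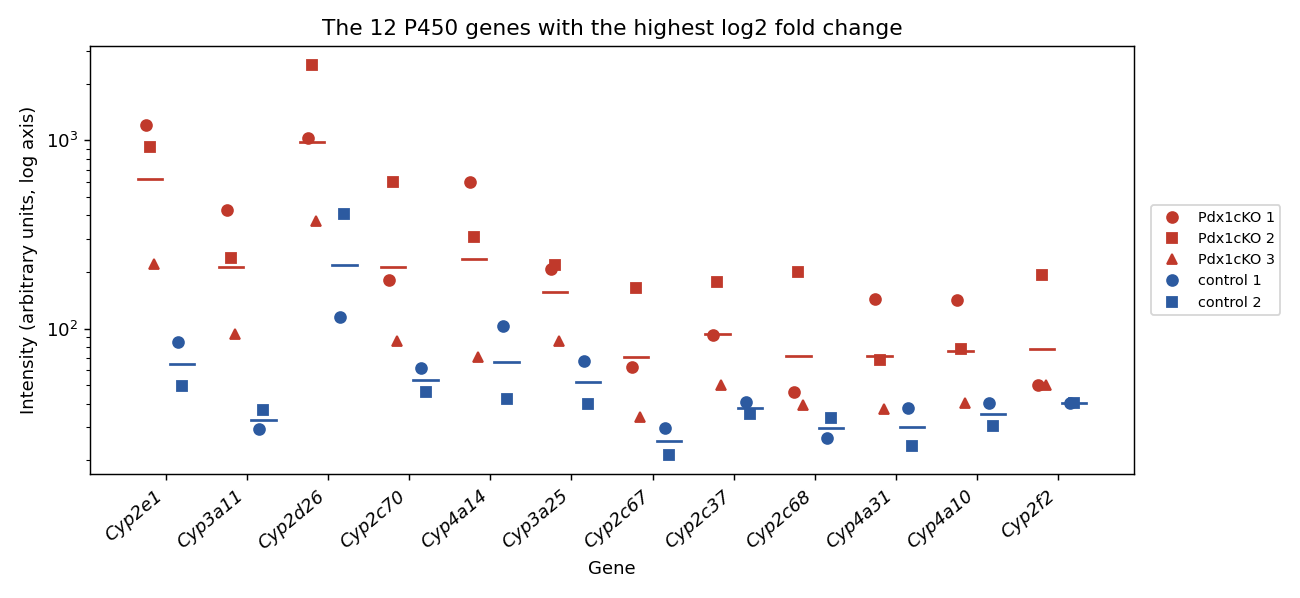
Normalised intensity (log axis) of the 12 P450 genes with the highest log2 fold change, 1 point per array, with the 3 Pdx1cKO arrays left of the 2 control arrays in each gene and a bar at the mean of log2 values. In Cyp2e1 and Cyp3a11 every mutant lies above both controls, whereas in Cyp2d26 and Cyp4a14 the groups overlap.

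The 200 bases before the start site, from RefSeq promoters (GRCm38.p6), are shown for every member whose window held CAAAGTCCA, the gut gene Cyp2c65 among them. Cyp2e1 and Cyp2d26, which had high fold changes and no such match, are shown beside them. Capitals mark this run of letters, an element of the type bound by the liver and gut receptor HNF4 alpha, and TATAAA, which reads TTTATA where it lies on the opposite strand.
Cyp2e1, chr7:140763619-140763818, plus strand: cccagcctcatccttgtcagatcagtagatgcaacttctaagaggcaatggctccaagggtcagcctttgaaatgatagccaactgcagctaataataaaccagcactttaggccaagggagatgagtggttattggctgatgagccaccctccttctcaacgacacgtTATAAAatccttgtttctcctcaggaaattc
Cyp2d26, chr15:82794246-82794445, minus strand: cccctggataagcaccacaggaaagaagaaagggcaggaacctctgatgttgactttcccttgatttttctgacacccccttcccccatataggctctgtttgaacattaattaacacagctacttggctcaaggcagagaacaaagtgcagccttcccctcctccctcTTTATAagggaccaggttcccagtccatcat
Cyp3a11, chr5:145879855-145880054, minus strand: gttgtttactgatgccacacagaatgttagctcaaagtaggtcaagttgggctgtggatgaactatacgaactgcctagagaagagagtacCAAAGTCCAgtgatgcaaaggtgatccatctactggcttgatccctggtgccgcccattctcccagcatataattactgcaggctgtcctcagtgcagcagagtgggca
Cyp3a16, chr5:145469724-145469923, minus strand: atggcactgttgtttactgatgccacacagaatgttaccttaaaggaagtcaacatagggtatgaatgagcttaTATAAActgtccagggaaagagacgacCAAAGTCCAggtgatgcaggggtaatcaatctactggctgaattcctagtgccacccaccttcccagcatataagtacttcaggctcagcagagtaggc
Cyp2c70, chr19:40187287-40187486, minus strand: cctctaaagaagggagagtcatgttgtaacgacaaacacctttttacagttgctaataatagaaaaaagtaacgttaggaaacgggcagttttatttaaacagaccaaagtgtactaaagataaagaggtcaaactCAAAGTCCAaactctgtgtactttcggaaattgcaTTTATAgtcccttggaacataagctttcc
Cyp2c67, chr19:39649043-39649242, minus strand: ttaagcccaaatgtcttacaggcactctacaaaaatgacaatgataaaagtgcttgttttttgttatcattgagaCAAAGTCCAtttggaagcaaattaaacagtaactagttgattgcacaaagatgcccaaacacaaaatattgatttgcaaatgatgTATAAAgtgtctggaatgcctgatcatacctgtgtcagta
Cyp2c68, chr19:39741102-39741301, minus strand: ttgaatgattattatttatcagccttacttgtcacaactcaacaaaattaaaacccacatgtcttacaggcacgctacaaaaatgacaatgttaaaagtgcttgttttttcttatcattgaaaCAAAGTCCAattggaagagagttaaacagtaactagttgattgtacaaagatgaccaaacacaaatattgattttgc
Cyp2c65, chr19:39060806-39061005, plus strand: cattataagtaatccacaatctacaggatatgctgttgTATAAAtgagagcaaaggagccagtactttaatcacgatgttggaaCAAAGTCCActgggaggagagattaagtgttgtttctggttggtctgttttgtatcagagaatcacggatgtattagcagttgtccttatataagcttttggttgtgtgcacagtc

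Windows of this kind were held for 53 of the 69 members, as 60 windows. The letters CAAAGTCCA, searched on both strands, were in 6 of the 60 and in 0.317% of 32851 windows of all genes. The 6 genes were Cyp3a11, Cyp3a16, Cyp2c65, Cyp2c67, Cyp2c68 and Cyp2c70, so the gut gene Cyp2c65 carried it as well as the liver ones. It ended at base -101 before the start site in Cyp3a11, at -91 in Cyp3a16 and at -56 in Cyp2c70. The windows of Cyp2e1 and Cyp2d26 held none, and in both TATAAA lay at bases -31 to -26, on the opposite strand in Cyp2d26. TATAAA, searched on both strands, was in 20 member windows (33.3%) and in 9.96% of all windows. These windows are not independent, since neighbouring copies are alike: Cyp3a11 and Cyp3a16 matched at 156 of 189 aligned bases (82.5%), and Cyp2c67 and Cyp2c68 at 140 of 152 (92.1%). The expression of Hnf4a itself was 293, 413 and 119 in Pdx1cKO pancreata, against 178 and 343 in control pancreata, and overlapped (log2 difference -0.02).

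The members with the lowest fold changes were epithelial and gut forms, and in most of them control 2 decided the value. Cyp2c65, which oxidises arachidonic acid in stomach and intestine, read 19.6, 20.1 and 20.7 in Pdx1cKO pancreata, against 20.6 and 363 in controls 1 and 2. Cyp2c66, its neighbour in the gene cluster, read 25.3, 27.3 and 22.2, against 26.0 and 140.5. Control 1 lay among the mutants in both genes, and the log2 difference of Cyp2c65 was -2.10 (SE 1.39) with all arrays and -0.03 without control 2, and that of Cyp2c66 was -1.28 and -0.07. Without control 1 the log2 difference was -4.17 in Cyp2c65 and -2.5 in Cyp2c66, each resting on a lone control. Cyp2c55, Cyp2j6 and Cyp4f39 had the same form, with 30.3, 189 and 78.5 in control 2 against at most 21.4, 122 and 38.4 on the other arrays, and without control 2 the differences of Cyp2j6 and Cyp4f39 were -0.01 and -0.12.

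Cyp2s1, a P450 of epithelia, was the 1 low member in which both controls lay well above the mutants. It read 251, 266 and 311 in Pdx1cKO pancreata, against 489 and 1866 in control pancreata. The log2 difference was -1.80 (SE 0.659, 95% interval -3.69 to 0.10, adjusted p 0.515 from limma), -0.83 without control 2 (adjusted p 0.109), and -2.76 without control 1 (adjusted p 0.0149), each with a lone control assumed to vary as the mutants do. Control 1 held 523 in summed stomach markers, below all 3 mutants, but single markers went both ways. Gkn1 read 43.6 in control 1, above all 3 mutants, and Pgc read 46.4, below all 3. The part of gut tissue in its Cyp2s1 value was not tested. Of 9 gut-type P450s on a list from textbook knowledge, 0 were higher and 2 lower without overlap, where 12% and 11.7% of all genes were, and their median log2 difference was -0.31 (range -2.10 to 0.06).

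**Figure D3:**
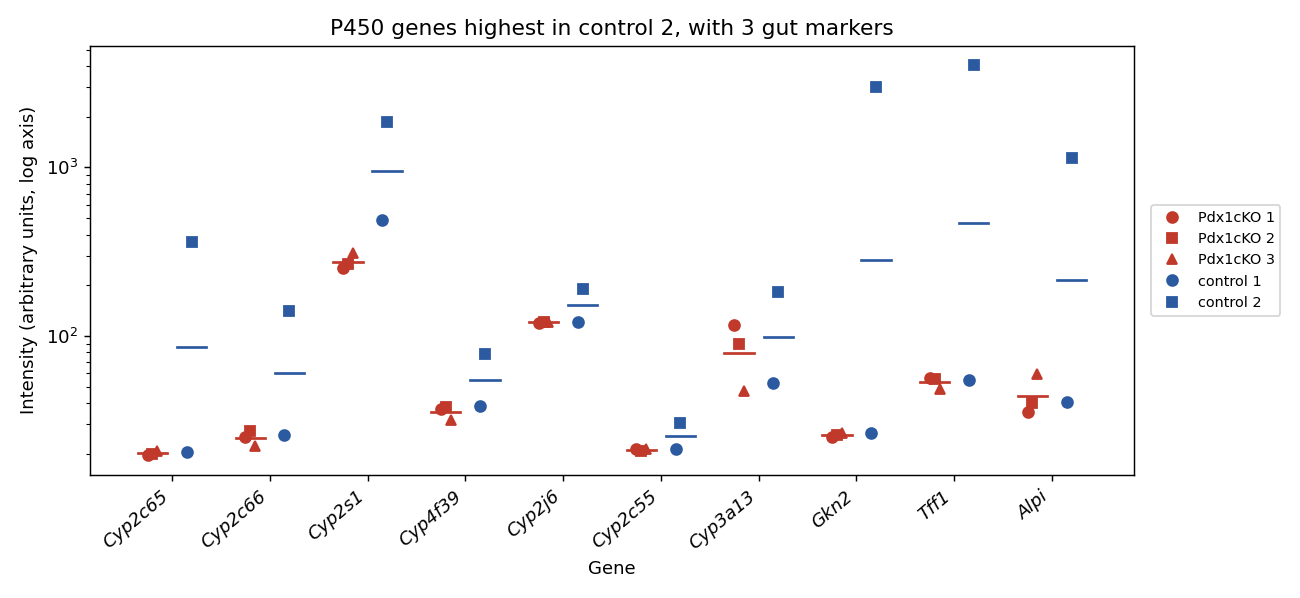
Intensity (log axis) of 7 gut and epithelial P450 genes and the gut markers Gkn2, Tff1 and Alpi, 1 point per array, with the 3 Pdx1cKO arrays left of the 2 control arrays and a bar at the mean of log2 values. Cyp2c65 and Cyp2c66 stand out in control 2 alone, while Cyp2s1 is above the mutants in both controls. The markers shown are among those far higher in control 2 than in control 1. Others of the 11 stomach and 10 intestinal markers were flat, or lower in both controls than in the mutants.

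The order of the Cyp2c genes along their cluster in RefSeq followed this split in part. Cyp2c55, Cyp2c65 and Cyp2c66, with log2 differences of -0.27, -2.10 and -1.28, stood at one end. Cyp2c29, Cyp2c39 and Cyp2c38 came next, at -0.01, 0.10 and -0.12. Cyp2c67, Cyp2c68, Cyp2c37, Cyp2c54, Cyp2c50 and Cyp2c70 followed, at 1.48, 1.27, 1.29, 0.08, 0.03 and 1.99, so the higher genes were not an unbroken run. Cyp2c40 and Cyp2c69, which lie among them, were not analysed here.

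Subfamilies with small differences made up much of the remainder. Their counts without overlap stand beside 12% of all genes higher and 11.7% lower. The 5 Cyp2b genes had a median log2 difference of 0.02 (range -0.05 to 0.37) and 0 free of overlap in either direction. Cyp2b10, the classical target of the receptor CAR (Nr1i3), read 87.0, 49.8 and 40.5 in Pdx1cKO pancreata, against 41.1 and 49.8 in control pancreata, so Pdx1cKO 1 alone was high. Nr1i3 itself stayed between 41.5 and 45.9. Nr1i2, the receptor PXR that drives Cyp3a11 in liver, read 58.8, 60.04 and 55.7 in Pdx1cKO pancreata, against 44.4 and 94.2 in control pancreata. Of the 6 Cyp2j genes, 0 were higher and 2 lower without overlap (median -0.05). The lower pair, Cyp2j11 and Cyp2j12, were the members with an unadjusted p under 0.05 in that direction, at log2 differences of only -0.09 and -0.11. Cyp2j5, a form of liver and kidney, read 58.8, 98.0 and 47.6 in Pdx1cKO pancreata, against 47.6 and 37.3 in control pancreata. The 9 Cyp4f genes had a median of -0.05, with 1 higher (Cyp4f18) and 1 lower (Cyp4f39) without overlap.

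Members by known site of expression are counted beside the 12% of all genes that were higher without overlap and the 11.7% that were lower. Of 10 measured genes on the list of fetal and neonatal liver P450s, 4 were higher and 0 lower without overlap, and their median log2 difference was 1.19 (range 0.06 to 3.26). Relative to the control mean, the median of this list was 2.12, 1.38 and 0.26 in Pdx1cKO 1, 2 and 3. Of 25 measured adult liver P450s, 8 were higher and 1 lower, with a median of 0.37 (range -0.12 to 1.99). For the 10 members on the list of other tissues the median was -0.02, with 2 higher and 3 lower. Forms at low intensity included Cyp1a2, an abundant enzyme of adult liver, which read 27.01 on all 5 arrays, and Cyp1a1, a target of the aryl hydrocarbon receptor, at 30.6, 31.6 and 30.6 in Pdx1cKO pancreata, against 35.2 and 24.9 in control pancreata. In all, 36 members lay below the median intensity of every array.

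**Figure D4:**
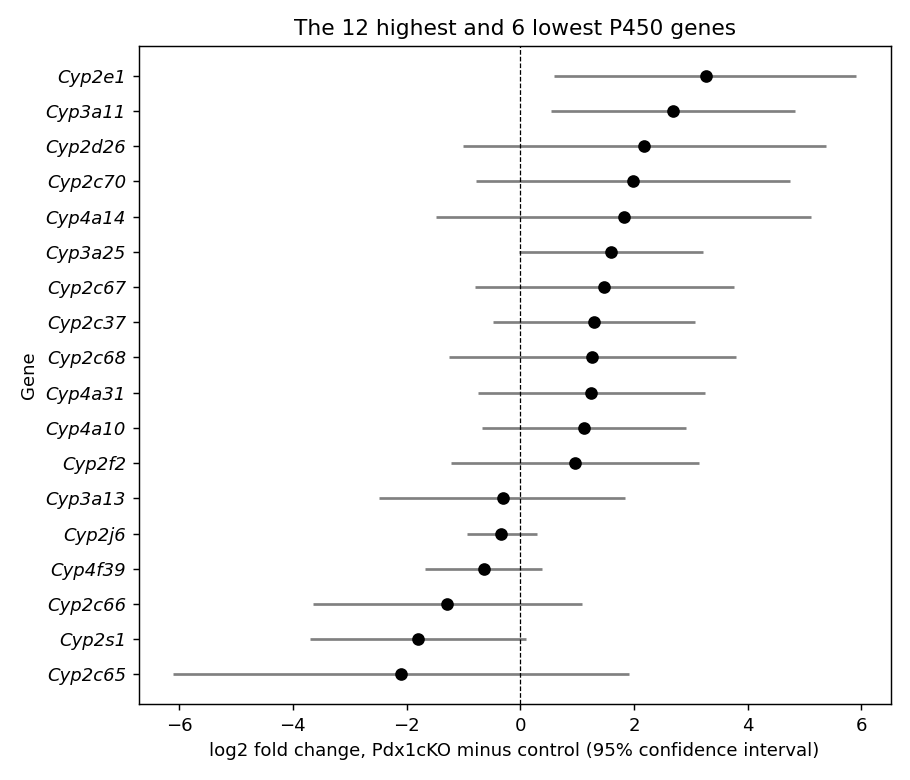
Log2 fold change, Pdx1cKO minus control, of the 12 highest and 6 lowest P450 genes (points) with the 95% interval from limma (horizontal lines), ordered by fold change. The unadjusted intervals of Cyp2e1 and Cyp3a11 lie above 0, and the other 16 shown cross 0.

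A further pair of members differed by little but with narrow spread. Cyp4f18, which inactivates leukotriene B4 in neutrophils, read 53.5, 55.5 and 49.4 in Pdx1cKO pancreata, against 39.4 and 34.9 in control pancreata (log2 difference 0.51, SE 0.0828, interval 0.27 to 0.75, adjusted p 0.239 from limma). All 8 granulocyte markers, a list added after earlier results were known, were also higher without overlap, where 12% of all genes were. Their median log2 difference was 2.29. They summed to 2406, 3482 and 1259 in Pdx1cKO pancreata, against 418 and 429 in control pancreata, and their part in Cyp4f18 was not tested. Cyp1b1, which oxidises oestrogens and retinoids and is found in mesenchyme, read 77.0, 76.2 and 90.6, against 70.8 and 68.3 (0.22, adjusted p 0.515), and was highest in Pdx1cKO 3.

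The 3 mutants differed among themselves. Of the 22 members more than 0.5 above the controls on the log2 scale, 16 were highest in Pdx1cKO 2, 6 in Pdx1cKO 1 and 0 in Pdx1cKO 3. Pdx1cKO 3 was the lowest mutant in 19 of them, as it was in summed hepatocyte markers. Between Pdx1cKO 1 and 2 the members did not keep a common ratio. Cyp2c23, Cyp2c68, Cyp2f2 and both Cyp4a12 copies were far higher in Pdx1cKO 2, whereas Cyp4a14, Cyp4a31, Cyp4a10 and Cyp3a11 were lower there. The median of Pdx1cKO 2 minus Pdx1cKO 1 over the 22 was 0.81, and 8 exceeded 1. Over the 12 hepatocyte markers the median was 0.52 (0.0 to 2.28). Cyp2f2, which is found in lung and in liver, read 50.0, 193 and 50.0 in Pdx1cKO pancreata, against 40.1 and 40.4 in control pancreata (0.96, SE 0.756), and differed by 0.31 without Pdx1cKO 2. Each array is a single mouse, and Xist was high in Pdx1cKO 1 and 2 only.

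**Figure D5:**
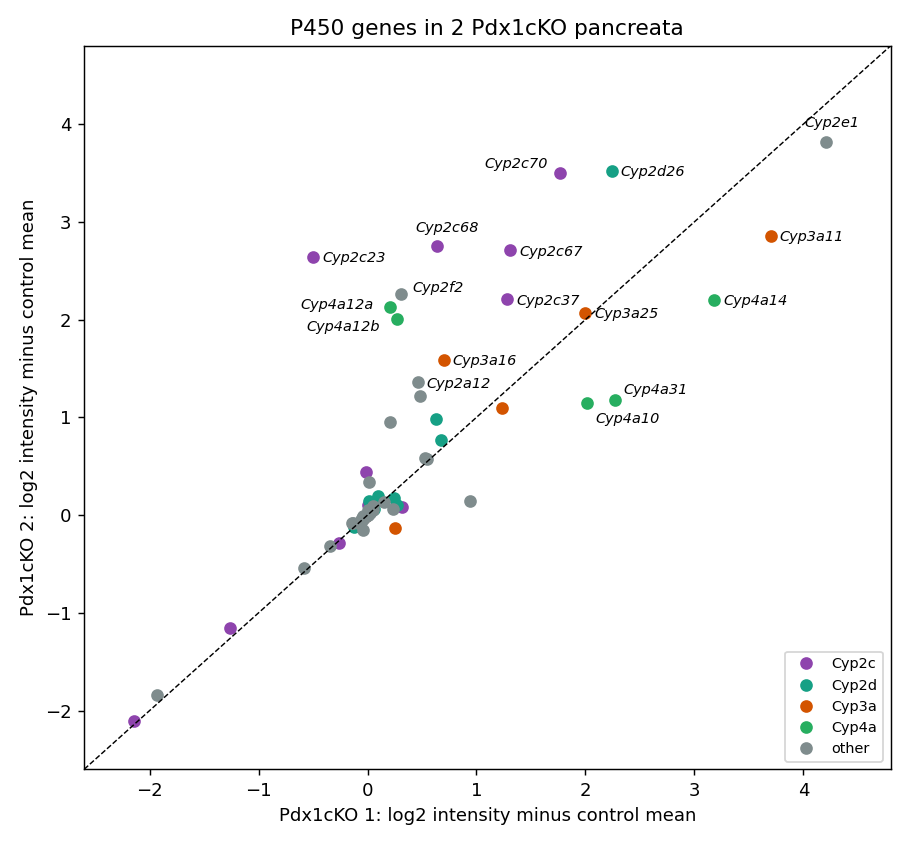
Log2 intensity minus the control mean of each P450 gene in Pdx1cKO 1 (horizontal axis) and in Pdx1cKO 2 (vertical axis), coloured by subfamily, with the line of equal values dashed. The labelled Cyp2c genes lie above the line and Cyp4a14, Cyp4a31 and Cyp4a10 below it.

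The genes whose pattern over the 5 arrays was nearest to that of Cyp2e1, by root mean square distance of centred log2 values, were Hpd (0.307), Hrg (0.385), Serpina1c (0.402), G6pc (0.418) and Apoa2 (0.424). Hpd, an enzyme of tyrosine breakdown, read 870, 770 and 168 in Pdx1cKO pancreata, against 102 and 58.0 in control pancreata. The likeness is a description over 5 arrays and was searched over all genes.

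Of 6 measured partners in electron transfer and haem supply, 2 were higher and 1 lower without overlap, where 12% and 11.7% of all genes were, with a median log2 difference of 0.03. Fech, which inserts iron into haem, read 197, 260 and 145 in Pdx1cKO pancreata, against 112 and 105 in control pancreata (0.85, unadjusted p 0.0451, adjusted p 0.466 from limma). Cyb5r3, the reductase of cytochrome b5, read 754, 822 and 738, against 1425 and 1053 (-0.67, unadjusted p 0.0155, adjusted p 0.326). Pgrmc1, a haem-binding partner of P450 enzymes, and Cyb5b, the cytochrome b5 of the outer mitochondrial membrane, differed by 0.19 and -0.38 (adjusted p 0.515 each). Of 13 regulators, 1 was higher and 2 lower without overlap, beside the same shares of all genes, with a median of -0.05. Ahrr, the repressor of the aryl hydrocarbon receptor, had the smallest p and read 29.1, 29.4 and 29.7 in Pdx1cKO pancreata, against 32.6 and 34.7 in control pancreata (-0.19, unadjusted p 0.00615, adjusted p 0.257). Foxa2, a forkhead factor of liver and pancreas, read 68.9, 77.8 and 59.3 in Pdx1cKO pancreata, against 92.4 and 99.5 in control pancreata (-0.49, unadjusted p 0.0269, adjusted p 0.385). Dbp, a circadian factor, read 62.8, 70.7 and 63.8, against 124.8 and 70.7, and overlapped (-0.52, adjusted p 0.515).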

How the data were processed

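Total RNA of whole pancreas was labelled and hybridised to Mouse Gene 1.0 ST arrays, 3 Pdx1cKO and 2 control, each of a separate mouse. The authors deposited normalised intensities on a linear scale, processed in GeneSpring GX, and the normalisation method is not given in the sources used here. Of 28853 probe sets, 21789 carried 1 symbol in the platform annotation, and probe sets of a gene were averaged on the log2 scale, giving 19938 genes. Nothing was filtered, rescaled or floored. Pdx1cKO was compared with control by limma 3.58.1 in R 4.3.3, with Benjamini-Hochberg adjustment over all genes at 0.05. On simulated data for this comparison, with 200 of 19938 genes changed, limma recovered 64.3% at a log2 change of 1 and 92.5% at 4. Of 176 simulated calls, 14 were false. Changed genes were drawn at random with each gene's own spread, so recovery among genes as variable as the highest P450s was not measured. In the data the same fit called 0 genes, and the acinar marker Ctrl, at a log2 difference of -5.6, had an adjusted p of 0.204. The simulated recovery is therefore not a measure of power in these data. Alternatives changed the scaling, the filter on dim genes, the probe set rule, the model or the arrays used. Genes named were the 12 highest and 6 lowest by fold change, members spanning over 2 log2 units, members of a list that a count rested on, and the 4 genes with the smallest p on each of the lists of partners and regulators. Other members, and Hnf4a, Nr1i2 and Nr1i3, were described after their values were seen. The members and lists were chosen with earlier results of these data known. The number of arrays limits the precision. Deviations of same-numbered arrays from their group means correlated at r 0.0325 and -0.00297. The 2 controls deviate from their mean in exact opposition, so these values are not separate checks and cannot exclude pairing. Arrays were not treated as pairs.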

Additional observations from a re-analysis of the deposited data

How the results depend on the processing

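Results kept their direction in most settings tried. For the 22 named members, 306 of 317 values under 15 settings kept direction and side of the threshold, 4 moved past it, and 7 turned sign. The filters on dim genes, the probe set rules, the trend and robust options of limma and the t-test could not change a member's fold change. Since 0 members were called in the main fit, keeping the side of the threshold means only staying uncalled. Median scaling gave 4 members lower at an unadjusted p and 24 lower without overlap. Quantile normalisation gave 1 lower at an unadjusted p and 25 higher without overlap. Both settings can break the exact ties between arrays that 32 members held. For the counts of members at an unadjusted p, without overlap or at 2-fold, this section gives no share of all genes. They are therefore not results about P450s in particular. Keeping genes above the median level gave 1 lower at an unadjusted p, 5 higher and 1 lower without overlap, 6 and 1 at 2-fold, and a median of 0.46. Keeping those above the lower quartile gave 0 lower at an unadjusted p, 3 lower without overlap, 1 at 2-fold lower and a median of 0.51. Array weights gave 1 and 1 at an unadjusted p. The methods' t-test after adjustment called 3 genes higher and 7 lower over all genes, and 1 member lower unadjusted. The replicate block, which pairs by number only, gave 12 members higher and 1 lower at an unadjusted p and 17 at 2-fold higher. Pdx1cKO 3 has no control of its number, so the block's log2 differences are those without Pdx1cKO 3. It is therefore not a setting separate from leaving out that array.

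Leaving out 1 array at a time gave 0 to 1604 genes higher and 0 to 2072 lower over all genes. For members it gave 0 to 1 higher and 0 to 6 lower after adjustment, 2 to 10 and 0 to 14 unadjusted, 14 to 27 and 9 to 20 without overlap, 8 to 17 and 0 to 5 at 2-fold, and a median of 0.01 to 0.08. The calls came only without control 1 (Cyp2c38, Cyp2c55, Cyp2c65, Cyp2c66, Cyp2j6 and Cyp2s1 lower, Cyp1a1 higher) and without control 2 (Cyp2r1 higher, Cyp3a57 lower), where the lone control is assumed to vary as the mutants do. Cyp2r1 read 39.97 on every Pdx1cKO array, against 38.77 in control 1, and Cyp3a57 read 24.85 on each, against 25.57. Both genes thus had exact ties with no spread among the mutants, and their differences were small. Groups of fewer arrays separate more readily, so the counts without overlap rise with an array left out whatever the genes. Cyp3a13 turned to 0.06 with the replicate block, and with 1 array left out ran between -1.21 (without control 1) and 0.58 (without control 2), with 0.06 without Pdx1cKO 3. Cyp2c23 ran between -0.27 (without Pdx1cKO 2) and 1.30 (without Pdx1cKO 1). Cyp2d22 ran between -0.96 (without control 2) and 1.07 (without control 1), with -0.04 without Pdx1cKO 1 and -0.01 without Pdx1cKO 2. The cause was not tested. Many members lie near the lowest intensities, where signal limits what can be seen.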

Other observations

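P450s outside families 1 to 4 included several enzymes of bile acid synthesis, none of which passed adjustment. Cyp7a1, the rate-limiting enzyme of the classical route from cholesterol, read 111, 415 and 79.0 in Pdx1cKO pancreata, against 29.8 and 25.1 in control pancreata. Its log2 difference was 2.49 (SE 0.855, unadjusted p 0.0483, adjusted p 0.478 from limma), without overlap, and highest in Pdx1cKO 2. Cyp8b1, which directs synthesis to cholic acid, read 129, 149 and 53.9, against 45.2 and 44.8 (1.17, adjusted p 0.515), and Cyp39a1, an oxysterol hydroxylase, read 397, 416 and 229, against 221 and 163 (0.82). Cyp27a1, the sterol 27-hydroxylase, overlapped (0.63, unadjusted p 0.16), and Cyp7b1, an oxysterol hydroxylase, differed by -0.05. Of 14 measured P450s of other families, 5 were higher and 0 lower without overlap, where 12% and 11.7% of all genes were, with a median of 0.29.

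A further 7 probe sets named several genes, at least 1 of them a P450 of families 1 to 4, and were left unnamed. Of these, 5 were higher in Pdx1cKO pancreata without overlap and 0 were lower, where 12% and 11.7% of all genes were. Their log2 differences ran from 0.01 to 2.62 with a median of 1.69.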
